A study of Mus musculus with 20 samples.

Results

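The 20 livers of the series were ranked by the RNA level of 3 cholesterol synthesis genes, and all 20 entered the ranking. The score of a liver was the mean level of Sqle, Hmgcs1 and Idi1, each taken from its brightest probe as the log2 signal relative to the 75th percentile of its array. Within each of the 2 slide series, sets of 10 arrays with related slide barcodes, the 5 livers with the highest score were called high and the 5 with the lowest were called low. This gave 10 high and 10 low livers out of 20. The classes are ranges of a continuous measure and not treatment groups. They were chosen from the readout, so the values of the 3 score genes are given as a description, with no test between the classes.

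Each liver was that of a male of the inbred strain C57BL/6J, a mouse that had taken 60% of its calories from fat since weaning and was 6 weeks old at collection. The labels call 10 samples diet-induced obesity responders, which are susceptible to weight gain on this diet, and 10 non-responders, which resist it. There were 4 responders beside 6 non-responders in the first slide series and 6 responders beside 4 non-responders in the second. No group ate another diet, the labels carry no animal identifiers, and they do not give the hour of sampling or the feeding state. The p-values therefore measure the spread between these samples. Total RNA of each liver was labelled with Cy3 and hybridised to 1 single-colour Agilent array.

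Cells make cholesterol from acetyl-CoA through mevalonate, isopentenyl diphosphate, squalene and lanosterol, and the liver makes much of the cholesterol that leaves in lipoproteins and bile. Hmgcs1 encodes the cytosolic synthase that makes HMG-CoA, Idi1 the isomerase that makes dimethylallyl diphosphate, and Sqle the squalene epoxidase that acts on squalene. When sterols in the endoplasmic reticulum run low, SCAP carries the precursor of the transcription factor SREBP2 to the Golgi, where proteases release its active part. SREBP2 then binds sterol regulatory elements in the promoters of nearly all genes of the pathway, often beside sites of the factors NF-Y and Sp1. Feeding, the hour of the day and dietary sterol are all known to alter the pathway in liver.

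The 250 bases before the start of 2 score genes and of the 2 synthesis genes that differed most between the classes are shown because the known regulation acts there. The sequences are from RefSeq, build GRCm38.p6, 5′ to 3′ on the gene's strand. Capitals mark the sterol regulatory element letters TCACNCCAC or the NF-Y letters CCAAT, on either strand. Hmgcs1 lies at chr13:119690101-119690350 on the plus strand, Idi1 at chr13:8885356-8885605 on the plus strand, Mvd at chr8:122443423-122443672 on the minus strand and Msmo1 at chr8:64733579-64733828 on the minus strand.
Hmgcs1: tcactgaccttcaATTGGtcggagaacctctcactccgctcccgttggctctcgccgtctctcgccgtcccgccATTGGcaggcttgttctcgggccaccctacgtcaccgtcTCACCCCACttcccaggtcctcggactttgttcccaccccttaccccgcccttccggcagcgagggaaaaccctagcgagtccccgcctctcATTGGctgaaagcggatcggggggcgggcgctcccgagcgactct
Idi1: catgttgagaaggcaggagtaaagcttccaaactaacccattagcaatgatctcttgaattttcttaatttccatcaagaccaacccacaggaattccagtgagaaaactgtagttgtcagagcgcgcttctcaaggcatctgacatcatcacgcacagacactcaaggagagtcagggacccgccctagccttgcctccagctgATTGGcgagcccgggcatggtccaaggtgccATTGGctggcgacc
Mvd: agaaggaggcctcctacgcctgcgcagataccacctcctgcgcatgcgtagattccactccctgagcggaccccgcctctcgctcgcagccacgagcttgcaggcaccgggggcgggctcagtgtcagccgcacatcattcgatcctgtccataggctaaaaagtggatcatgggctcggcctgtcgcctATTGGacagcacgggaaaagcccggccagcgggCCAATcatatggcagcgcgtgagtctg
Msmo1: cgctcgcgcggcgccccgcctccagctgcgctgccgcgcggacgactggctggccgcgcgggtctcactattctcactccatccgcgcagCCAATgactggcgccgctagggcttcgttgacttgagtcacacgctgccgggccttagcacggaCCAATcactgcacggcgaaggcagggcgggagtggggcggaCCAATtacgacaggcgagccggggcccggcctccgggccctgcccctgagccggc

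Hmgcs1 held 1 match to the sterol element and 3 to CCAAT in these bases. Idi1 held 2 CCAAT matches, Mvd held 2 and Msmo1 held 3. In windows from 250 bases before to 50 bases after the start, CCAAT was present in 12 of the 14 other cholesterol synthesis genes with a RefSeq window (85.7%), and in 41.1% of all 27025 genes with one. The Sp1 letters GGGCGG were present in 13 of those 14 genes (92.9%) and in 38.2% of all genes, and the E-box CACGTG in 3 of 14 (21.4%) and 8.09%. The letters TCACNCCAC were present in 0 of the 14 and in 1.44% of all genes. A match is a description of the letters and not a measured binding site, and a missing match says only that these letters are not in the window.

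The score ran from 1.49 in non-responder 10 to 4.43 in non-responder 8, in log2 units. In the first slide series the high livers were non-responder 4 at 4.12, responder 3 at 3.64, responder 1 at 3.57, non-responder 2 at 3.14 and non-responder 6 at 2.93. The low livers of that series were responder 2 at 2.80, non-responder 1 at 2.70, non-responder 3 at 2.53, responder 10 at 2.49 and non-responder 5 at 2.21. The boundary of the first series thus lay between 2.93 and 2.80. In the second series the high livers were non-responder 8 at 4.43, responder 7 at 4.40, responder 4 at 4.17, responder 9 at 4.02 and non-responder 7 at 3.89. The low livers there were non-responder 9 at 3.80, responder 8 at 3.79, responder 6 at 3.29, responder 5 at 3.10 and non-responder 10 at 1.49. The boundary of the second series lay between 3.89 and 3.80, and its low class held both livers just under the boundary and the lowest liver of all. Since the second series ran higher, 4 of its 5 low livers scored above the lowest high liver of the first series.

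**Figure D1:**
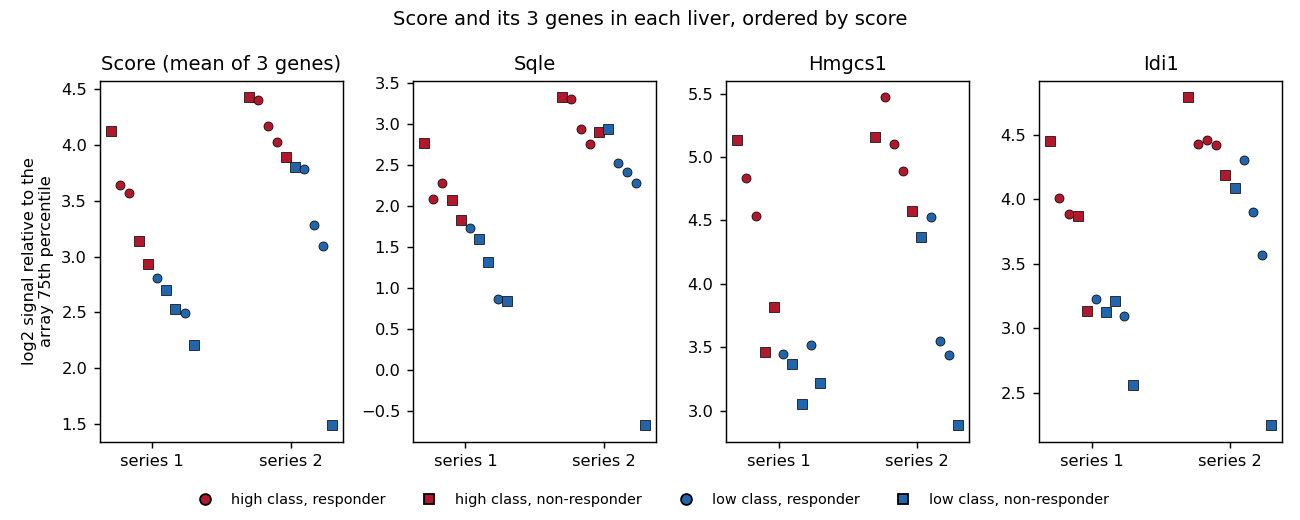
Score and level of Sqle, Hmgcs1 and Idi1 in each liver, as log2 signal relative to the 75th percentile of the array, by slide series and ordered by score. Colour gives the class and shape the responder label. Non-responder 10 lies lowest, with a score of 1.49 and Sqle at -0.67, and both labels occur in both classes.

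Sqle had a median level of 2.76 in the high livers (range 1.83 to 3.33) and 1.67 in the low livers (range -0.67 to 2.94). Non-responder 10 stood far below the rest for Sqle, at -0.67, where the next lowest liver of its series was at 2.28. Hmgcs1 had a median of 4.86 in the high livers (range 3.46 to 5.47) and 3.44 in the low livers (range 2.88 to 4.53). The class means differed by 1.04 for Sqle, 1.16 for Hmgcs1 and 0.83 for Idi1, which follows from the choice of the classes. The 3 genes moved together across livers within the slide series, with Pearson's r of 0.92 for Sqle and Idi1, 0.86 for Hmgcs1 and Idi1 and 0.78 for Sqle and Hmgcs1 (20 livers, a description over arrays that share slides). The dimmer probes of Hmgcs1 and Idi1, which the score did not use, followed it with r of 0.80 and 0.90 for Hmgcs1 and 0.89 for Idi1. The scored probes lie on chromosome 15 from 59162384 to 59162443 for Sqle and on chromosome 13 from 8891386 to 8891445 for Idi1, in mm9, the build of the array annotation. That annotation places the Hmgcs1 probe on the unplaced sequence 13_random from 114807 to 114866.

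The responder label did not line up with the classes. The high class held 5 responders and 5 non-responders, and so did the low class. In the first slide series each class held 2 responders and 3 non-responders, and in the second each held 3 responders and 2 non-responders (Fisher's exact test over both series, two-sided p = 1). The responders had a mean score of 3.53 ± 0.61 (SD, n = 10) and the non-responders one of 3.12 ± 0.93 (SD, n = 10). With the slide series as a term, responders exceeded non-responders by 0.29 (SE 0.34), with a 95% interval from -0.43 to 1.02. Single score genes gave responder minus non-responder differences of 0.29 for Sqle, 0.33 for Hmgcs1 and 0.26 for Idi1, with limma adjusted p-values of 0.861, 0.822 and 0.829. Ranking all 20 arrays together rather than within series moved 4 livers to the other class and put 6 responders among the 10 high livers (Fisher's exact p = 0.656).

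The classes were then compared over the 17092 genes and unnamed probes that the score did not use, with limma and the slide series as a term. The other genes were measured on the same arrays as the score, so a deviation of a whole array enters both. With 0 genes past the adjusted threshold of 0.05 (0%), 3110045C21Rik came nearest at 0.411. A total of 1449 genes, or 8.48%, reached an unadjusted p under 0.05, of which 594 were higher (3.48%) and 855 lower (5%) in the high livers. Leaving out non-responder 2, a high liver, gave 2 calls, 3110045C21Rik at 0.85 and Mvd at 1.38 (limma adjusted p = 0.0241 for both), and leaving out responder 10, a low liver, gave 1, Ip6k2 at -0.88 (limma adjusted p = 0.00528). Class differences below are high minus low in log2 units with their standard error (SE), and since none passed the threshold they are given as values. The fit of each gene on the score itself, over all 20 livers and with the slide series as a term, used the same measurements without the boundary. It called 20 of 17092 (0.117%) at a limma adjusted p of 0.05, of which 15 had a positive slope (0.0878%) and 5 a negative one (0.0293%). Slopes below are log2 units of the gene per log2 unit of the score.

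The remaining enzymes of cholesterol synthesis were higher in the high livers as a group. All 18 measured members of the list differed upward, by 0.0020 to 1.23 with a median of 0.32, where 51% of all genes tested were higher and their median was 0.0031. Of the 18, 8 had an unadjusted p under 0.05, all higher, against 8.48% of all genes. In both slide series 16 of the 18 were higher, against 27% of all genes. Only 11 of 18 were higher after normexp background correction, and 17 of 18 after plain background subtraction. Without non-responder 10 the count was 17 of 18 and the median 0.23. On 3 arrays the SD of the log2 values after normexp was under 0.8 of that after plain subtraction. It was narrowest on responder 1, a high liver, at 0.68 against 2.33. The part of this narrowing in the normexp counts here and below was not tested.

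Of these enzymes Mvd, in the steps from mevalonate to isoprenoid diphosphates, had the widest difference. Mvd encodes the decarboxylase that yields isopentenyl diphosphate. In the first slide series its level was 0.83, 0.44, 0.57, -1.13 and -0.07 in the high livers, in order of falling score, and -0.85, -0.72, -1.39, -0.95 and -1.50 in the low livers. In the second series it was 0.14, 1.11, 0.18, 0.43 and 0.60 in the high livers and -0.09, -0.17, -1.12, -0.61 and -1.79 in the low livers. The classes did not overlap in the second series, and in the first only non-responder 2 lay within the low range. The share of all genes without overlap in a series was not counted, here or for the genes below. In the second series alone 9.7% of all genes had an unadjusted p under 0.05. The class difference of Mvd was 1.23 (SE 0.24), a 2.34-fold higher signal, split into 1.21 (first series) and 1.25 (second series) (limma adjusted p = 0.515). Its slope on the score was 1.00 (SE 0.13; limma adjusted p = 0.000918).

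Mvk, the mevalonate kinase gene, ran from -0.88 to 0.35 in the high livers with a median of -0.01, and from -1.49 to -0.24 in the low livers with a median of -0.67. The ranges overlapped, and the class difference was 0.61 (SE 0.17). Pmvk, which encodes the kinase of the next step, differed by 0.35 (SE 0.12). Both rose with the score, with slopes of 0.57 (SE 0.09) for Mvk and 0.37 (SE 0.06) for Pmvk, each at a limma adjusted p of 0.0081. Fdps, the farnesyl diphosphate synthase gene, had a class difference of 0.50 (SE 0.26) and a slope of 0.70 (SE 0.12; limma adjusted p = 0.0146). Its lowest level, 1.44, was in non-responder 10, and without that liver the slope was 0.43 (adjusted p = 0.163).

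At the entry to the pathway, Acat2, which encodes the cytosolic thiolase that condenses acetyl-CoA, differed by 0.25 (SE 0.15), and its sign turned after normexp.

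**Figure D2:**
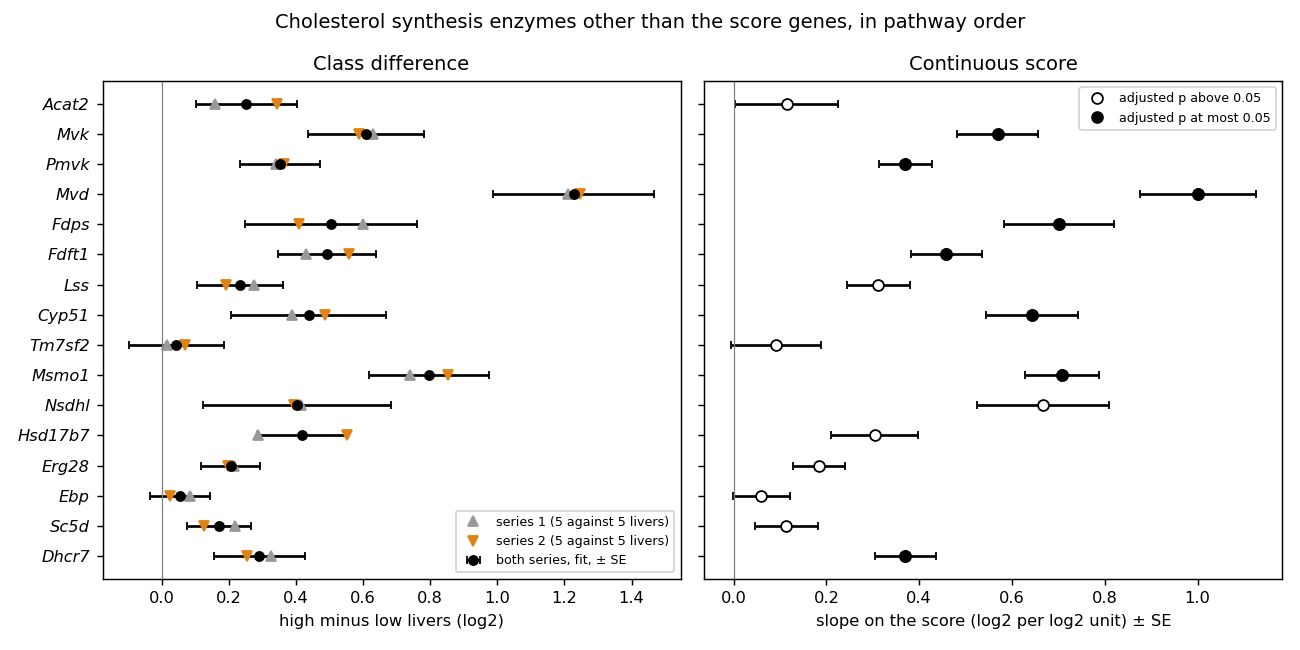
16 cholesterol synthesis enzymes in pathway order. The left panel gives the high minus low difference in log2 units from the fit with its SE (black) and within each slide series (grey and orange), and the right panel the slope on the score with its SE, filled where the limma adjusted p was at most 0.05. Of the genes shown, Mvd has the widest difference, 1.23, and Tm7sf2 the narrowest, 0.04.

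In the sterol branch, Fdft1, the squalene synthase gene, had a median of 2.59 in the high livers (range 1.71 to 2.94) and 2.13 in the low livers (range 1.07 to 2.35). It differed by 0.49 (SE 0.15) and rose with the score with a slope of 0.46 (SE 0.08; limma adjusted p = 0.0146). Lss, which encodes the cyclase that makes lanosterol, differed by 0.23 (SE 0.13), and its slope of 0.31 had a limma adjusted p of 0.0843. Cyp51, the lanosterol demethylase gene, differed by 0.44 (SE 0.23) with a slope of 0.64 (SE 0.10; limma adjusted p = 0.0081). Cyp51 was at -0.89 in non-responder 10, where the other 19 livers lay between 0.12 and 1.46. Without non-responder 10 its slope was 0.35 (limma adjusted p = 0.128), so the slope rests in large part on that liver.

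Msmo1 encodes the methylsterol monooxygenase of the demethylation complex. Its level in the first slide series was 5.53, 4.98, 5.23, 4.44 and 4.30 in the high livers and 4.52, 4.50, 4.31, 4.06 and 3.38 in the low livers. In the second series it was 5.33, 5.48, 5.02, 5.54 and 5.42 in the high livers and 4.86, 4.91, 4.46, 4.53 and 3.76 in the low livers. The second series did not overlap between the classes, and in the first the high livers non-responder 2 and non-responder 6, nearest the boundary, lay among the low ones. Msmo1 differed by 0.80 (SE 0.18), a 1.74-fold higher signal, and had the steadiest slope, 0.71 (SE 0.08; limma adjusted p = 0.000542). Without non-responder 10 the slope was 0.88 (adjusted p = 0.00164).

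The later sterol steps gave a mixed picture. Hsd17b7, a ketoreductase gene of the same complex, differed by 0.42 (SE 0.13), and Erg28, the gene of its scaffold, by 0.21 (SE 0.09), but neither slope passed (limma adjusted p = 0.258 and 0.253). Dhcr7, which encodes the reductase of the last step of one branch, differed by 0.29 (SE 0.14) and rose with the score with a slope of 0.37 (SE 0.07; limma adjusted p = 0.0194). Nsdhl differed by 0.40 (SE 0.28), with a slope of 0.67 and a limma adjusted p of 0.0841, and ranged from 0.31 to 2.66 over the livers. Sc5d, a desaturase gene, differed by 0.17 (SE 0.09). Ebp and Tm7sf2, which encode an isomerase and a further sterol reductase, differed by 0.05 (SE 0.09) and 0.04 (SE 0.14). Erg28, Sc5d, Ebp and Tm7sf2 turned sign after normexp.

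The slope passed for 8 of these 18 genes, against 0.117% of all genes tested (10.3% had an unadjusted p under 0.05), and the 8 were Mvd, Mvk, Pmvk, Fdps, Fdft1, Cyp51, Msmo1 and Dhcr7. With a block on the replicate number 0 of the 18 passed, after normexp 1 and with array weights 4. Msmo1, Mvd and Mvk passed in all 20 fits that each left out 1 liver. The total of 20 genes ranged from 13, without non-responder 8, to 43, without responder 10. Without non-responder 10 it was 15, of which 6 were among the 20, and 4 of the cholesterol enzymes remained. Neither slide series alone gave a call (0 of 17092 in each).

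**Figure D3:**
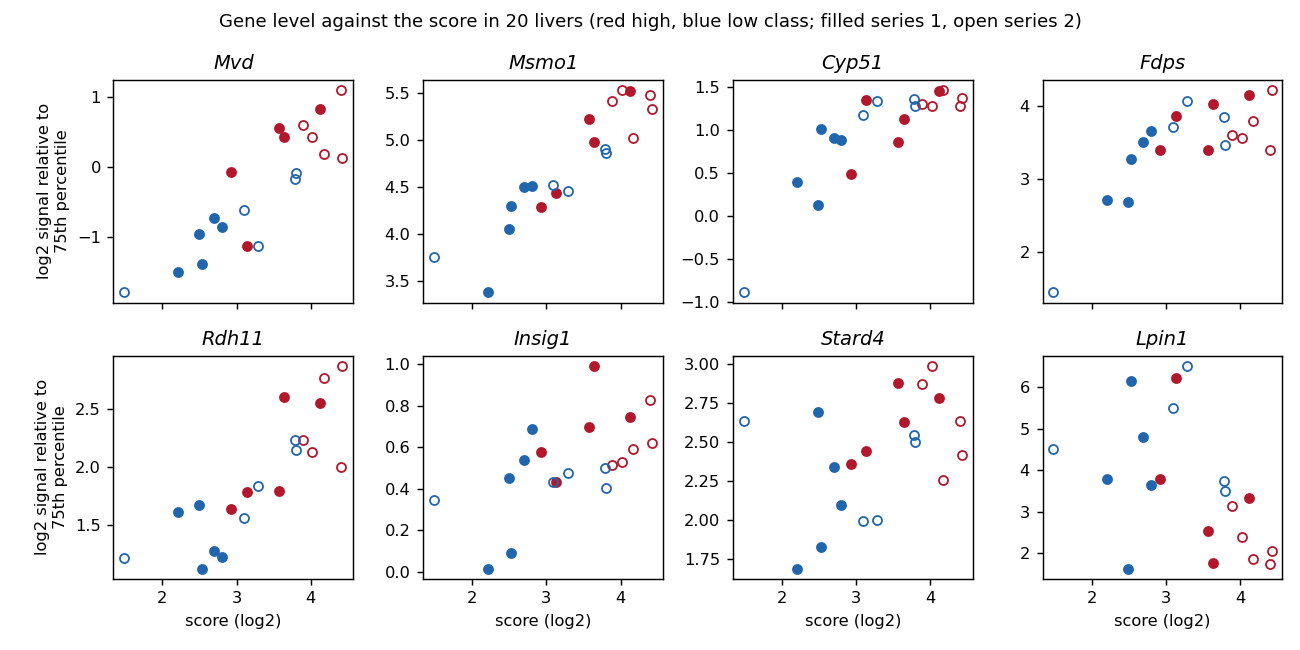
Level of 8 genes against the score in the 20 livers, both in log2 units relative to the 75th percentile of the array, with colour for the class and filled symbols for the first slide series. Mvd and Msmo1 rise with the score, but not in order of score in every liver, and Mvd is at -1.13 in non-responder 2, a high liver. Cyp51 has 1 liver far below the rest at -0.89. Fdps and Rdh11 have slopes of 0.70 and 0.54, and Lpin1 is lower in most high livers.

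Genes that control SREBP2 or take up cholesterol were less uniform. Of 16 measured members 12 were higher, with a median of 0.12, and 6 had an unadjusted p under 0.05, 5 of them higher and 1 lower. In both slide series 12 of 16 were higher, against 27% of all genes. After normexp 7 of 16 were higher, and with plain background subtraction 11. The slope passed for 1 member, Rdh11.

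Rdh11, a retinol dehydrogenase gene known as an SREBP target, differed by 0.65 (SE 0.16) and rose with the score with a slope of 0.54 (SE 0.09; limma adjusted p = 0.0178), which was 0.68 without non-responder 10 (adjusted p = 0.0523).

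Insig1, which encodes a sterol-sensing anchor of SCAP and is itself an SREBP target, had medians of 0.61 in the high and 0.44 in the low livers and differed by 0.26 (SE 0.09). Stard4, a sterol transfer protein gene, differed by 0.40 (SE 0.14), and Srebf2, the gene of SREBP2, by 0.29 (SE 0.13). Srebf1, which encodes the SREBP1 forms that act on fatty acid synthesis, differed by -0.08 (SE 0.25). The anchor gene Insig2 gave 0.31 (SE 0.28), Scap 0.11 (SE 0.07) and Mbtps1, a protease gene of SREBP processing, 0.03 (SE 0.06). None of these slopes passed in limma, with adjusted p-values from 0.221 for Insig1 to 0.944 for Srebf1.

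Scarb1, the HDL receptor gene, differed by -0.07 (SE 0.08), Npc2, a lysosomal sterol carrier gene, by -0.16 (SE 0.12), and Tmem97 and Mmab by 0.04 and 0.15. Srebf1 turned sign in some fits that left out 1 liver, Scap and Mbtps1 after normexp, and Tmem97 after normexp and plain subtraction.

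Lpin1, which encodes a phosphatidate phosphatase and transcriptional coactivator, went the other way. It was in the first slide series at 3.33, 1.76, 2.55, 6.22 and 3.79 in the high livers and at 3.64, 4.80, 6.13, 1.64 and 3.80 in the low livers. In the second it was at 2.06, 1.74, 1.86, 2.40 and 3.14 in the high livers and at 3.50, 3.73, 6.50, 5.50 and 4.51 in the low livers. All 5 high livers of the second series lay below all 5 low ones, while the first series overlapped throughout. Lpin1 differed by -1.49 (SE 0.60), which was -0.47 in the first but -2.51 in the second series (limma adjusted p = 0.551). With the clock components described below as covariates it was at 0.25.

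Neighbouring sterol pathways differed little in level. Oxidised sterols activate the receptor LXR, and of 14 LXR targets and efflux genes 5 were higher and 9 lower, with a median of -0.01, while quantile normalization gave 9 higher. Nr1h2, one of the LXR genes themselves, differed by 0.13 (SE 0.05). Of 24 bile acid synthesis and transport genes, which remove cholesterol from the liver, 11 were higher, with a median of -0.04. An unadjusted p under 0.05 was reached by 3 of them (12.5%), a share near the 8.48% of all genes. These were Hsd3b7, an enzyme of bile acid synthesis, at 0.44 (SE 0.17), Abcb4, the phospholipid exporter of bile, at 0.20 (SE 0.08), and Abcb11, the bile salt export pump, at 0.33 (SE 0.15). Of 11 genes of the isoprenoid branches, which use farnesyl diphosphate for other products, 5 were higher, with a median of -0.02, and Fnta, a farnesyltransferase subunit, differed by -0.17 (SE 0.07). Of 18 apolipoprotein and lipoprotein assembly genes 9 were higher, with a median of -0.0029. After normexp 3 of 14, 3 of 24, 5 of 11 and 3 of 18 were higher in these 4 lists.

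Fatty acid synthesis did not share the direction of the cholesterol enzymes. Of its 27 measured members 12 were higher, with a median of -0.03. Thrsp, a lipogenic regulator gene, had a median of 4.72 in the high and 6.15 in the low livers and differed by -1.35 (SE 0.50), Pnpla5 differed by -0.19 (SE 0.08), and the elongase gene Elovl1 by 0.16 (SE 0.07). Of 38 fatty acid oxidation and PPARA target genes 25 were higher, with a median of 0.05 and 1 with an unadjusted p under 0.05. That gene, Vnn1, which encodes a pantetheinase, differed by 0.51 (SE 0.18). After normexp 7 of 27 and 9 of 38 were higher in these lists.

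Over both slide series clock genes differed more than the cholesterol enzymes did in median size, but not in the first series alone. In the liver the activators BMAL1, encoded by Arntl, and CLOCK drive Per, Dbp and other outputs in a daily rhythm, so their levels depend on the hour of sampling. Of 18 measured clock genes 13 were lower in the high livers, with a median of -0.58, and 10 had an unadjusted p under 0.05, all lower, against 5% of all genes. In both slide series 13 of 18 were lower, against 28.6% of all genes. The first series alone gave a median of -0.25, where the cholesterol synthesis list gave 0.31. There 2 of 18 clock genes had an unadjusted p under 0.05 (3.91% of all genes). The second gave -0.53, where the cholesterol synthesis list gave 0.35, with 9 of 18 clock genes at that p (9.7% of all genes). After normexp and after plain background subtraction 14 of 18 were lower.

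Per1, which encodes a repressor that also responds to glucocorticoids, was in the first slide series at -0.30, -1.72, -0.14, 0.95 and 0.24 in the high livers and at 1.04, 0.96, 1.04, -2.78 and 0.40 in the low livers. In the second it was at -2.69, -3.37, -3.33, -0.41 and 0.70 in the high livers and at 0.68, 0.10, 1.15, 1.26 and 0.93 in the low livers. The 3 livers with the highest scores in the second series had Per1 far below the other livers of that series. The class difference was -1.49 (SE 0.61), made up of -0.32 in the first and -2.65 in the second series. Usp2, Per2 and Tef, a deubiquitinase, a repressor and a PAR-domain factor gene, differed by -1.61 (SE 0.55), -1.004 (SE 0.36) and -0.80 (SE 0.28).

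Ciart, a clock repressor gene, gave the widest difference toward lower values, at -2.60 (SE 1.03), and Per3 gave -1.61 (SE 0.63), but both were well above background in only 7 of 10 high livers and in all 10 low livers. Arntl, whose rhythm opposes that of Per1, ran from -2.53 to 1.86 in the high and from -2.01 to 1.31 in the low livers, and differed by 0.49 (SE 0.56). Dbp differed by -0.92 (SE 0.72) and Nr1d1, a repressor gene, by 0.81 (SE 0.49). For Arntl the first series gave -0.21 and the other 1.20. Ciart, Per3, Arntl, Dbp and Nr1d1 were chosen after their values were seen.

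**Figure D4:**
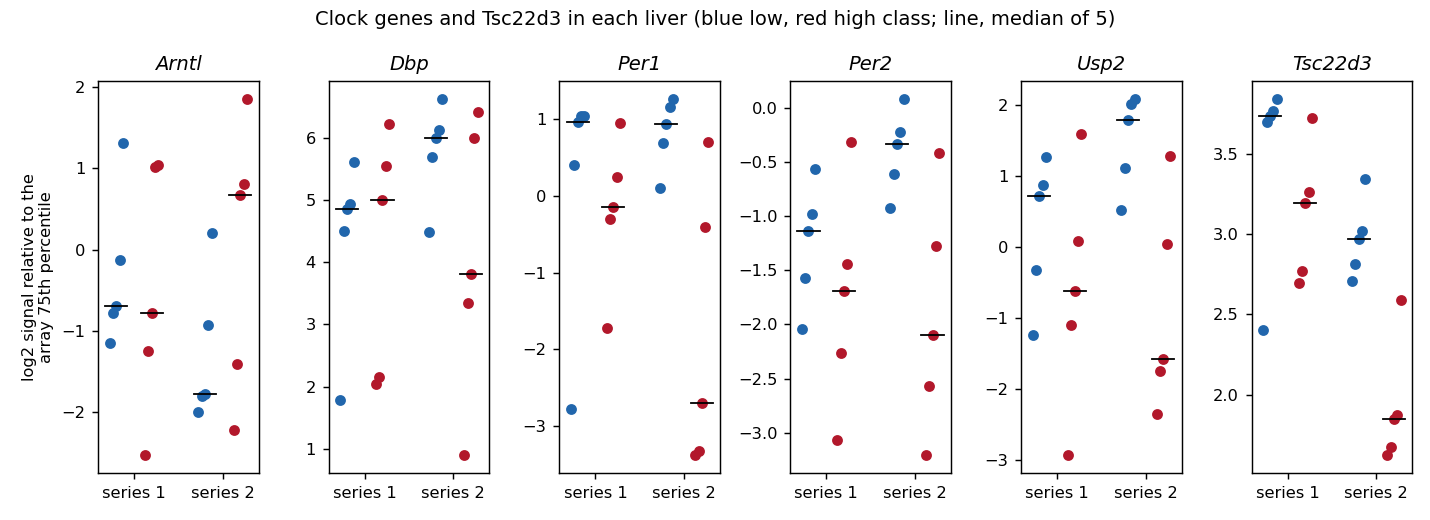
Level of 5 clock genes and Tsc22d3 in each liver, as log2 signal relative to the 75th percentile of the array, by slide series and class (blue low, red high, line at the median of 5). In the second series 3 high livers have Per1 between -3.37 and -2.69, and the first series overlaps more.

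The first 2 principal components of the clock list held 76.3% and 17.2% of its variance, and their correlation with the score within series had a size of 0.44 and 0.34 over the 20 livers. With both as covariates the number of genes with an unadjusted p under 0.05 in the class comparison was 426, where it was 1449 without them. The cholesterol synthesis list had a median of 0.25 under these covariates, with 17 of 18 higher, and the slope on the score passed for 19 genes, of which 12 were among the 20 and 9 were cholesterol enzymes. Msmo1 had a slope of 0.72, Mvd of 0.85, Fdps of 0.91 and Cyp51 of 0.87 in that fit, all past the threshold in limma (adjusted p at most 0.0089). Rdh11 was not among the genes past it, as no member of the SREBP control list was.

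Glucocorticoid targets and fasting genes were lower with the clock genes. These lists share members, with Per1 in the clock and glucocorticoid lists and Tat in the glucocorticoid and glucose lists. All 11 measured glucocorticoid targets were lower in the high livers, with a median of -0.60, and 3 had an unadjusted p under 0.05, against 5% of all genes that were lower at that p. In both slide series 7 of 11 were lower, against 28.6% of all genes. The first series alone gave a median of -0.16 with 0 of 11 at an unadjusted p under 0.05 (3.91% of all genes), and the second -1.05 with 7 of 11 (9.7% of all genes). Tsc22d3, which encodes the leucine zipper protein GILZ, was at 1.85, 1.87, 1.63, 1.68 and 2.59 in the high livers of the second series and at 2.97, 2.71, 3.02, 3.34 and 2.81 in the low livers there. These did not overlap, while the first series did, and the difference was -0.70 (SE 0.20) over both. Of 18 glucose and fasting genes 15 were lower, with a median of -0.27, and 5 had an unadjusted p under 0.05, all lower, against 5% of all genes. Their median was -0.10 in the first series alone, with 0 at that p, and -0.38 in the second, with 8. Sds, a serine dehydratase gene, differed by -0.62 (SE 0.25), Tat, the tyrosine aminotransferase gene, by -0.60 (SE 0.25), the glycogen synthase gene Gys2 by -0.57 (SE 0.24) and Foxo1 by -0.34 (SE 0.14). With the clock components as covariates 4 of 11 glucocorticoid targets were lower, with a median of 0.03, and 8 of 18 glucose genes, with a median of 0.01. After normexp 10 of 11 and 17 of 18 were lower.

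Interferon response genes were higher in 27 of 28, with a median of 0.22, and 8 had an unadjusted p under 0.05, all higher, against 3.48% of all genes. In both slide series 21 of 28 were higher, against 27% of all genes. The first series alone gave a median of 0.37, with 2 of 28 at an unadjusted p under 0.05 (3.91% of all genes). The second gave 0.09, with 1 of 28 (9.7% of all genes). Isg15, a ubiquitin-like interferon product, had a median of 2.69 in the high livers (range 1.55 to 3.20) and 1.77 in the low livers (range 1.24 to 3.28), and differed by 0.64 (SE 0.24). Its lowest high liver was non-responder 2 and its highest low liver non-responder 9. The GTPase genes Igtp and Irgm1 differed by 0.55 (SE 0.22) and 0.41 (SE 0.17), and Ddx58, the gene of the RNA sensor RIG-I, by 0.39 (SE 0.16). With the clock components as covariates 13 of 28 were higher and the median was -0.03, and after normexp 24 of 28.

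Of 22 amino acid and endoplasmic reticulum stress genes 9 were higher, with a median of -0.04. Herpud1, which encodes a membrane protein of protein disposal, had a median of 5.39 in the high livers (range 4.20 to 6.57) and 6.09 in the low livers (range 5.29 to 6.78). All 5 high livers of the second series lay below all 5 low ones, and the difference was -0.91 (SE 0.24; limma adjusted p = 0.551). The chaperone genes Hspa5 and Dnajb9 differed by -0.33 (SE 0.12) and -0.30 (SE 0.11), and Ddit3, a stress factor gene, by -0.25 (SE 0.10). Of 12 heat shock genes 8 were lower, with a median of -0.06, among them Hspa8 at -0.37 (SE 0.14). Of 34 cell cycle genes 27 were higher, with a median of 0.20, but the series split, with medians of 0.43 (first) and -0.03 (second), and Tk1, the thymidine kinase gene, was lower by 0.45 in the high livers. Of 22 acute phase genes 14 were higher, with a median of 0.06, but the series split here too, with 16 higher in the first (median 0.22) and 5 in the second (median -0.20). Orm3, of that list, differed by -0.85 (SE 0.35). Of 35 detoxification genes 23 were lower, with a median of -0.13, including the P450 genes Cyp2a5 at -0.77 (SE 0.33) and Cyp2a4 at -0.70 (SE 0.33), whose near-identical sequences the probes may not separate.

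**Figure D5:**
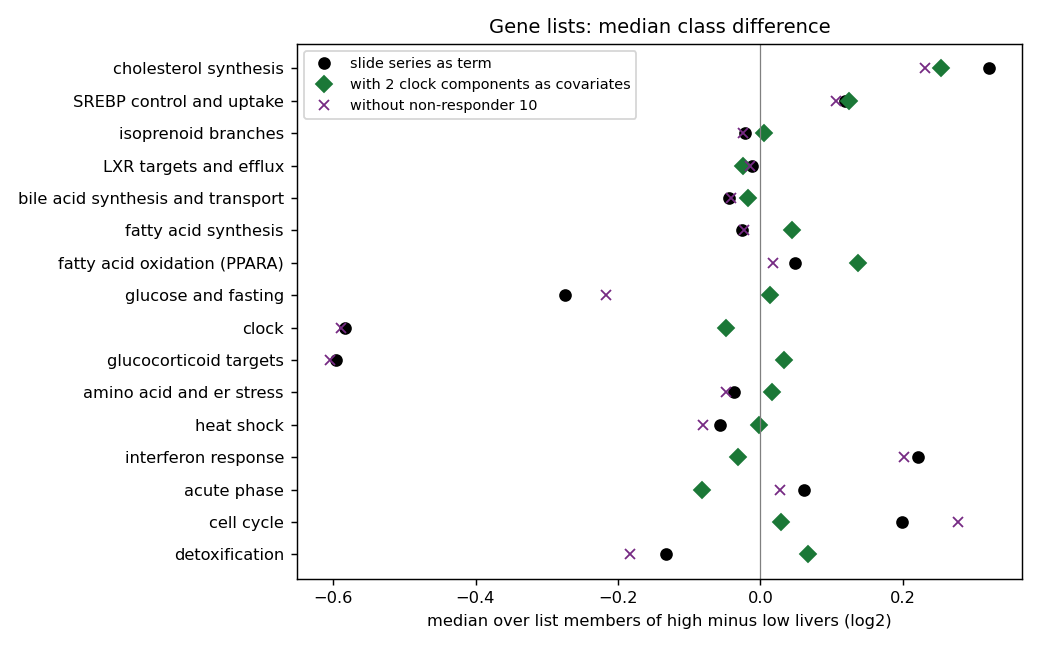
Median high minus low difference over the measured members of each gene list, in log2 units, with the slide series as a term (black), with 2 clock components as covariates (green) and without non-responder 10 (purple). The cholesterol synthesis median is 0.32, 0.25 and 0.23 in these fits, and the glucocorticoid median is -0.60, 0.03 and -0.60.

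Markers of other cells were checked since a bulk liver holds several cell types, and fewer cells of a type and less RNA per cell cannot be told apart in such data. The 11 hepatocyte markers were well above background in every liver, with an average level from 7.08 to 7.39 in the high and from 7.13 to 7.73 in the low livers. Of these 11, 8 were lower in the high livers, with a median of -0.0089. An unadjusted p under 0.05 was reached by 2, both lower, against 5% of all genes. In the first series alone 6 of 11 were higher (median 0.02), and in the second 0 of 11 (median -0.08). All 21 pancreatic enzyme genes were higher in the high livers, with a median of 1.44, but 0 of 21 in the first series alone, where the median was -1.44 against 4.06 in the second. Over both series 0 of 21 had an unadjusted p under 0.05, but in the second alone 18 of 21 had, against 9.7% of all genes. Their average level ran from -5.07 to 4.89 in the high and from -5.45 to 4.95 in the low livers, and with it as a covariate 17 of 18 cholesterol enzymes were higher, with a median of 0.31. Macrophage markers were higher in 13 of 15 with a median of 0.07, lymphocyte and neutrophil markers in 7 of 13 with 0.03, adipose markers in 5 of 9 with 0.03, cholangiocyte markers in 4 of 10 with -0.07, stellate markers in 5 of 17 with -0.05, endothelial markers in 3 of 14 with -0.06 and blood markers in 1 of 7 with -0.09. Blood cell and immune markers went opposite ways in the slide series. Macrophage markers were higher in 15 of 15 in the first (median 0.29) and in 1 of 15 in the second (median -0.16). Lymphocyte and neutrophil markers were higher in 11 of 13 (median 0.49) and in 0 of 13 (median -0.22), and blood markers in 6 of 7 (median 0.29) and 1 of 7 (median -0.44). Between 55.8% and 65.7% of spots were well above background in the high livers and between 57.0% and 71.2% in the low livers, with no spot saturated. The part of these markers and of spot quality in the class differences was not tested beyond these fits. Over all genes, the class accounted for 3.51% of the first principal component, which held 35.7% of the variance, and for 28.5% of the second, which held 11.3%.

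Outside the lists, 3110045C21Rik had the smallest adjusted p of the class comparison, 0.411 in limma. This clone-named transcript lies between Hsd17b7 and Ddr2 in the gene order of RefSeq, and was named after its values were seen. In the first slide series it was at -1.55, -1.99, -1.71, -2.52 and -1.78 in the high livers and at -2.65, -2.34, -2.59, -2.27 and -2.67 in the low livers. In the second it was at -1.06, -1.10, -1.46, -1.33 and -1.40 in the high livers and at -1.92, -1.71, -2.32, -2.25 and -2.89 in the low livers. Only non-responder 2 lay within the low range of its series. It differed by 0.77 (SE 0.14), more than its neighbour Hsd17b7 at 0.42, and its slope of 0.61 (SE 0.08; limma adjusted p = 0.000918) passed in all 20 fits that left out 1 liver.

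Other genes that rose with the score were Aox1, an aldehyde oxidase gene, with a slope of 0.35 (SE 0.06; limma adjusted p = 0.0085), Aldh1a1, a retinaldehyde dehydrogenase gene, with 0.43 (SE 0.08), the transporter gene Slc16a11 with 0.30 (SE 0.05) and the carboxypeptidase gene Scpep1 with 0.19 (SE 0.04). Aldh1a1 was lowest by far in non-responder 10, at 6.28, and its slope was 0.18 without that liver, where Slc16a11 stood at 0.17. Neither passed then (limma adjusted p = 0.246 and 0.129), and Aox1 and Scpep1 did not either (limma adjusted p = 0.083 and 0.098). The probe A_52_P257026, which carries no gene name here, had the steepest slope of the 20, at 1.16 (SE 0.17). It did not pass without non-responder 10 (limma adjusted p = 0.064). Genes that fell as the score rose were Gls2, a glutaminase gene, with a slope of -0.24 (SE 0.04), Slc15a4, a lysosomal peptide transporter gene, with -0.34 (SE 0.06), Sox7 with -0.46 (SE 0.09), Tmem266 with -0.54 (SE 0.09) and Agap2 with -0.48 (SE 0.09). Their limma adjusted p-values lay between 0.0082 for Gls2 and 0.0490 for Agap2. Of the 20 fits that left out 1 liver, Agap2 passed in 3, Slc15a4 in 9, Sox7 in 11, Tmem266 in 18 and Gls2 in 19. Scpep1 passed in 4. Without non-responder 10 only Slc15a4 of the falling genes passed (limma adjusted p = 0.044), and the others lay between 0.070 and 0.16. With the clock components as covariates no falling gene passed (limma adjusted p from 0.095 to 0.26).

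By the smallest unadjusted p in each direction, the leading genes with higher values in the high livers were Mvd, Msmo1 and Rdh11 together with Dcst1 at 0.47 (SE 0.11) and H2al1m at 0.35 (SE 0.09). Dcst1 was well above background in 7 high and 4 low livers only, so it entered the comparison through the class where it is high and its value is no more than a description. Its difference turned to -0.10 in the authors' deposited values. Those with lower values were Slc15a4 at -0.45 (SE 0.10), Ip6k2, an inositol hexakisphosphate kinase gene, at -0.74 (SE 0.17), Ipmk, an inositol polyphosphate kinase gene, at -0.30 (SE 0.08), Angel2 at -0.25 (SE 0.06), the interferon factor gene Irf2 at -0.36 (SE 0.09), and Dbt, a subunit of branched-chain keto acid dehydrogenase, at -0.37 (SE 0.09). Angel2 had a median of 0.97 in the high livers (range 0.74 to 1.18) and 1.26 in the low livers (range 1.05 to 1.37), and the ranges overlapped at their edges. The limma adjusted p was 0.551 for all of these but Mvd.

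Whether the class difference itself depended on the responder label was tested with an interaction term. It called 0 of 17092 genes (0%) in limma, with 407 at an unadjusted p under 0.05 (2.38%) and a smallest adjusted p of 1.00. Mvd differed by 1.17 between the classes among non-responders and by 1.28 among responders, and Msmo1 by 0.84 and 0.75. Fdps differed by 0.97 among non-responders and 0.04 among responders, and Lss by 0.46 and 0.00, but neither passed the interaction test. The median over the 18 cholesterol synthesis genes was 0.44 among non-responders, a group that includes non-responder 10, and 0.21 among responders.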

How the data were processed

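Liver RNA of 20 samples was measured on single-colour Agilent arrays, and the deposited scanner files hold spot intensity on a linear scale. The processed intensity was background-subtracted within the array by Agilent Feature Extraction, which the file headers give as version 10.5.1.1 and the submitters' processing notes as 9.1, per the labels and headers. The authors' deposited table of processed intensity served as an alternative, and its scaling between arrays is not stated in the labels or headers. Values were analysed as log2 of the deposited processed intensity minus each array's 75th percentile over the 43379 spots that are not controls, and their number of arrays limits the precision. Outlier-flagged spots were left out, spots of a probe were averaged, and a probe was kept when it was well above background on 5 or more arrays of a class.

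Each gene was represented by its brightest probe, and probes without a name were kept singly, which gave 17092 values per array, 14472 of them with a symbol. All probes of the 3 score genes were left out. Of 41174 probes, 27479 were named through the RefSeq gene table by accession, 5478 by current and 679 by older symbol, 791 kept the array's symbol and 6747 have no name here. That table belongs to GRCm38.p6 and the array positions to mm9, so it served for names and gene order only. RefSeq promoter windows matched 14 of the 18 other cholesterol synthesis genes and 13 of the 18 SREBP control genes.

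Classes, and the score as a number, were tested with lmFit and eBayes of limma 3.58.1 under R 4.3.3 (slide series as a term, Benjamini-Hochberg adjustment at 0.05). The slide series coincided with the scan date. Both fits were first run on simulated data, and the outcome of those runs is not given here. Genes were named by a rule: those past the threshold, or, as fewer than 4 passed in either direction, the 6 with the smallest unadjusted p in each direction, leaving out predicted and clone-named genes. It added all members of the cholesterol synthesis and SREBP control lists, and of other lists up to 4 members, of which only those with an unadjusted p under 0.05 are given. Some genes that this rule names are not reported here, while counts and medians over lists cover all measured members. The members and lists were chosen with earlier results of these data known. Among 39 named genes measured by more than 1 probe, 0 had probes of opposite sign. Some listed genes were not matched and are not analysed here.

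Same-numbered responders and non-responders had deviations correlated between -0.30 and 0.61, over 0.1 in 8 of 10 pairs. These deviations were taken from the group mean with the slide series left in, so a shared series enters the correlations. Same-numbered samples 4, 5, 6 and 10 lay in different slide series. The correlations therefore cannot decide whether the numbers pair samples. The labels tie the numbers to no shared litter, batch or day, and the replicate block is given as an alternative. Alternatives were normexp with an offset of 50, plain background subtraction with the same offset (chosen after seeing the data), quantile normalization, the authors' values, other filters on dim probes, all probes of a gene averaged, array weights, slide as a random block, a replicate block, each slide series alone, no slide series term, ranking over all arrays, the responder label, array quality, clock components and other-tissue markers as covariates, and leaving out each liver. The continuous score as a result of its own, under the same alternatives, was also added after seeing the data.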

Additional observations from a re-analysis of the deposited data

Results flagged for a closer look

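In 25 of 184 sets of 10 livers examined, 1 per named gene and class, the highest or lowest liver stood apart from its neighbour by more than Dixon's 95% critical value for 10 samples. Chance flags about 1 in 20 such sets, and the slide series differ in level for some genes. Non-responder 2, a high liver, stood apart most often. Its level was low among the high livers for Mvd at -1.13, Acat2 at 4.43 and Ddx58 at 0.063, and high for Lpin1 at 6.22, Cps1 at 7.94, Ipmk at 2.87 and Sult1d1 at 4.99. Non-responder 6, the high liver nearest the boundary in its series, was lowest among the high livers for Dhcr7 at 3.85, Erg28 at 4.87 and Nsdhl at 0.54.

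Among the low livers, non-responder 10 stood apart for Aldh1a1 at 6.28, Fdps at 1.44, Hspa5 at 5.28 and Slc16a11 at 2.43, all lowest, and for Sox7 at -1.23, highest. Non-responder 5 was lowest for Dbp at 1.79, Erg28 at 4.54 and Fdft1 at 1.07, and highest for Insig2 at 6.18. Responder 10 was lowest for Ip6k2 at 1.55 and Per1 at -2.78. Responder 5 was lowest for Mbtps1 at 3.19, and responder 8 was lowest for Tmem266 at -4.79. The remaining sets concerned high livers, with Irf2 lowest in non-responder 8 at 0.56 and Npc2 lowest in responder 7 at 1.76.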

How the results depend on the processing

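The class comparison called 0 genes under every alternative run except 3: the continuous score called 20, leaving out non-responder 2 called 2 and leaving out responder 10 called 1, so that fits without 1 liver called 0 to 2. The interaction with the responder label called 0 in all of them. The continuous score called 20 genes, but 1 with normexp, 7 with array weights, 0 with the replicate block, 0 in the first and 0 in the second slide series alone, and 13 to 43 when 1 liver was left out. The other alternatives run for it gave 14 to 28. With the block on the replicate number, the class comparison and the interaction also called 0. The cause of these differences was not tested, and a single series also holds fewer livers. Normexp gave values that correlated at 0.632 with the processed signal on responder 1 and at 0.905 or more on the others. It moved 2 livers to the other class when the score was computed from it, where quantile normalization and the authors' values, in which 2 of the 3 score probes were found, moved 0. The median class difference over all genes was 0.0026 with normexp, where it was 0.0031 in the main fit. The number of arrays and the single low liver of the lowest score limit what can be resolved.

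Class differences turned sign as follows, among them the wide ones of Lpin1, Per1 and Usp2 under the clock covariates. With normexp they were Abcb4 at -0.072, Acat2 at -0.026, Cd4 at 0.043, Ebp at -0.25, Elovl1 at -0.069, Erg28 at -0.053, Mbtps1 at -0.17, Pnpla5 at 0.051, Sc5d at -0.17, Scap at -0.14, Scpep1 at -0.066, Tm7sf2 at -0.20 and Tmem97 at -0.19. With clock components as covariates they were Abcb11 at -0.077, Acat2 at -0.19, Arntl at -0.19, Cyp2a4 at 0.056, Cyp2a5 at 0.022, Foxo1 at 0.026, Gys2 at 0.11, Hsd3b7 at -0.070, Lpin1 at 0.25, Mbtps1 at -0.054, Per1 at 0.25, Sult1d1 at 0.062 and Usp2 at 0.033. With the replicate block they were Aldh1a1 at -0.036, Cyp51 at -0.025, Gsta4 at 0.017, Mmab at -0.023, Nsdhl at -0.13, Scarb1 at 0.093, Tm7sf2 at -0.018 and Tmem97 at -0.038. Array weights turned Tm7sf2 at -0.011, plain subtraction Ebp at -0.0017 and Tmem97 at -0.012, and the authors' values Dcst1 at -0.10 and Mbtps1 at -0.00045. The first series alone turned Arntl at -0.21, Npc2 at 0.078 and Scarb1 at 0.036. Fits that each left out 1 liver ranged across 0 for Mbtps1 (-0.0079 to 0.051), Srebf1 (-0.25 to 0.014), Tm7sf2 (-0.037 to 0.11) and Tmem97 (-0.0081 to 0.062). Per1, Usp2 and Arntl are members of the clock list that the clock components were computed from. Those covariates thus take up most of their class difference by construction. The cause of the other turns was not tested.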

Other observations

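Some skeletal muscle genes had wide class differences, although the 3 given here, chosen after their values were seen, passed no threshold. Myh4, a fast muscle myosin heavy chain, differed by 2.94 (SE 1.46), Ckm, the muscle creatine kinase, by 2.56 (SE 1.29) and Acta1, skeletal muscle actin, by 2.11 (SE 1.38). Myh4 ran from -3.84 to 4.91 in the high livers and from -8.82 to 5.07 in the low livers, so the classes overlapped over most of their range. The directions were opposite in the slide series, with Myh4 lower in the high livers of the first, at -0.72, and higher in those of the second. Myh4 and Ckm were well above background in all 10 high but only 7 of 10 low livers, so their differences over both series rest in part on signals at background and are no exact sizes. In the second series the livers with the lowest Myh4 were responder 8 at -8.82, non-responder 9 at -7.04 and responder 6 at -6.74, all of the low class. The part of muscle RNA in the class differences was not tested.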
